A study of Mus musculus with 72 samples.

Results

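A set of 49 array features was higher in septic than in sham-operated mice in both liver and kidney, while its medians differed by less than 0.5 log2 in spleen, lung and heart. The set was chosen by measured values. The difference d is the median of the septic (CLP) arrays minus the median of the sham arrays of an organ, on the log2 scale. A feature was kept where d was 0.8 or more in liver and in kidney, where both CLP medians exceeded 7, where d lay within 0.5 of 0 in spleen, lung and heart, and where no organ's sham median stood 3 or more above all others. The rule was applied to the 22504 rows whose columns follow the header, of 45281 probes in the table. Of these rows, 384 met the minimum of 0.8 in both organs, 328 also exceeded the median of 7 in both, and 49 of the 328 were within 0.5 in the other 3 organs. The platform annotation gives 1 gene symbol to 43 of the 49 probes, covering 42 genes because Cdk20 has 2 probes, and gives none to 6 probes, which are named here by probe ID.

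The study measured transcripts on Illumina bead arrays in 72 organ samples of female C57Bl/6J mice, 28 h after surgery. The sham arm underwent surgery with an intact gut, followed by saline. CLP mice had the cecum ligated and punctured, which spills gut bacteria into the abdomen and models sepsis, and also received saline. MSC mice had the same CLP injury and were infused 6 h after surgery with 250000 mesenchymal stem cells in 100 µL, which are stromal cells cultured from male C57Bl/6J mice and used at passages 8 to 11. Each arm had 5 livers, kidneys, lungs and hearts, which came from 15 numbered mice (S, C and M after the number mark sham, CLP and MSC), and 4 spleens with labels of their own. The design text gives 4 animals per group, so that it and the labels differ for these 4 organs. The organ of each array was taken from its title, source name and description, which name the same organ in all 72 samples. The separate tissue characteristic names another organ in 62 of them, and every value by organ here rests on the first 3 labels.

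In sepsis the liver and the kidney are injured at a distance from the infection, and cells in both organs change how they make, fold, transport and degrade proteins. Microtubules, built of alpha- and beta-tubulin, carry vesicles and secreted proteins in hepatocytes and tubule cells, and centrosomes organise them. The endoplasmic reticulum, where secreted proteins are folded, raises its chaperones when unfolded proteins pile up, a programme called the unfolded protein response. In these bulk samples, fewer cells of a type and less RNA per cell cannot be told apart.

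The genes in the set fall by known role into a few groups, which were drawn up after the members were known. Cytoskeleton and transport genes are Tubb2b and Tubb4b (beta-tubulins), Tuba1b (an alpha-tubulin), Cep170 and Cep78 (centrosomal proteins), Klc1 (a light chain of the motor kinesin), Hip1r and Trip10 (which link membranes to actin) and Xpo6 (which exports actin from the nucleus). RNA genes are Ddx39b and Ccnl1 (splicing), Cpsf7 (cleavage of the pre-mRNA end), Hnrnpab and Rbpms (RNA-binding proteins), Eif3d (translation initiation), and Ddx28 and Mrps18b (assembly and structure of the mitochondrial ribosome). Protein folding, targeting and turnover are represented by Dnajb9 (a co-chaperone of the endoplasmic reticulum), Srpr (the receptor of the signal recognition particle), Dnajc5 (a vesicle co-chaperone), Psmd4 (the ubiquitin receptor of the proteasome), Kctd10 and Tnfaip1 (adaptors of cullin ubiquitin ligases), Lnx2 (a ubiquitin ligase) and Vps37c (sorting of ubiquitinated membrane proteins). Regulators include Hbp1 (a repressor that slows the cell cycle), Crtc3 (a coactivator of CREB), Phf10 (a chromatin remodelling subunit), Cdk20 and Prkx (kinases), Ppp1r14b (an inhibitor of protein phosphatase) and Tnfrsf22 (a mouse decoy receptor for the death ligand TRAIL). Plin5 is a coat protein of lipid droplets in tissues that burn fat.

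Promoter sequence is shown for 4 of the members called higher in MSC than in sham liver, 3 of the microtubule system and 1 of protein folding. They are the tubulins Tubb4b and Tuba1b, the kinesin light chain Klc1 and the co-chaperone Dnajb9. Each run holds the 250 bases before a RefSeq transcription start on GRCm38.p6, read 5′ to 3′ on the gene's own strand, and capitals mark CCAAT or TGACGTCA. The regions are chr2:25224703-25224952 (minus strand) for Tubb4b, chr15:98934391-98934640 (minus strand) for Tuba1b, chr12:111758618-111758867 (plus strand) for Klc1 and chr12:44210069-44210318 (minus strand) for Dnajb9.
Tubb4b: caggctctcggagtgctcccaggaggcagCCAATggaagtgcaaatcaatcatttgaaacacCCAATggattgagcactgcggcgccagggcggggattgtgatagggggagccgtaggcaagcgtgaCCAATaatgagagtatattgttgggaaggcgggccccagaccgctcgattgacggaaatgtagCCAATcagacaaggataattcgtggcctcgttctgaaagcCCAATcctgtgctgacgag
Tuba1b: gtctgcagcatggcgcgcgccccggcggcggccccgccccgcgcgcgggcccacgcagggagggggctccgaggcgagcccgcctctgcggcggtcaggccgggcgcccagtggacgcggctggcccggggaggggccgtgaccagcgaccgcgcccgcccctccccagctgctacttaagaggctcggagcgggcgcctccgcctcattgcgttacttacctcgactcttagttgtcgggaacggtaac
Klc1: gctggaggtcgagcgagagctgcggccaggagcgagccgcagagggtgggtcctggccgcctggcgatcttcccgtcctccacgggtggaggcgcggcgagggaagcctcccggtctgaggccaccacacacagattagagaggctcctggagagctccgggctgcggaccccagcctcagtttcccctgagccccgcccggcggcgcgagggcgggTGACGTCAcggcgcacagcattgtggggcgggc
Dnajb9: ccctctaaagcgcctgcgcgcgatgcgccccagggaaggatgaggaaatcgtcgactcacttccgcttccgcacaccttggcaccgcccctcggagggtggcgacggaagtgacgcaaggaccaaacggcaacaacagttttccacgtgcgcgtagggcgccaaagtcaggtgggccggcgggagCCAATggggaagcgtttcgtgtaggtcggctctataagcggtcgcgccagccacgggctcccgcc
The Tubb4b region holds 5 CCAAT boxes, the sequence read by the factor NF-Y, with first bases at -221, -188, -122, -59 and -19 from the start. Dnajb9 holds 1, and Tuba1b has none of these letters in the window. Klc1 holds TGACGTCA, the element read by CREB and related factors. The Klc1 window lies inside the annotated gene, which begins at 111758435, so it precedes an internal start and not the gene's outermost one.

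Promoters were matched for 35 of the member genes and for 9923 genes on the array, and 11 motifs were searched on both strands of the window. TGACGTCA stood in 5.71% of the member promoters (Ccnl1 and Klc1), against 2.42% of all array promoters. For both of these genes the window lies inside the annotated gene, before an internal start. CCAAT stood in 37.1% against 39.8%, and the antioxidant core TGACNNNG in 37.1% against 38.3%. The glucocorticoid motif AGAACA stood in 8.57% against 15.5%, the nuclear receptor motif AGGTCA in 11.4% against 14.1%, the C/EBP motif TTGCNNAA in 8.57% against 9.99%, and the STAT motif TTCCNGGA in 5.71% against 7.18%. GGACTTTC, an NF-kB motif, stood in 2.86% (Plin5) against 1.13%, and TGATGNAA, an ATF4-C/EBP motif, in 0% against 3.08%. TATAAA stood in 2.86% against 12.4%, and the heat shock core GAANNTTC in 2.86% against 6.73%. The shorter motifs can overlap longer ones. The CCAAT box, the TATA box and the heat shock core were added after the members' values were seen, and a match is only a description of these letters.

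Across the set, d had a median of 1.18 in liver (0.81 to 3.48) and 1.02 in kidney (0.81 to 1.77), values that the rule itself required. It had a median of 0.15 in spleen (-0.40 to 0.49), 0.24 in lung (-0.41 to 0.49) and 0.22 in heart (-0.49 to 0.49). Over all 22504 rows the medians were 0.02 in liver, 0.01 in kidney, 0.01 in lung, -0.0047 in spleen and -0.0079 in heart. Within the limits of the rule, d was above 0 for 37 members in spleen, 41 in lung and 40 in heart. The share of all rows above 0 in these organs was not counted. The difference was larger in liver than in kidney for 32 members, with the widest gap in Tnfrsf22 (3.48 against 1.28, where the sham liver median lies below the intensity floor of 6 and a sham value at the floor gives 3.31) and Tubb2b (3.46 against 1.77). Every CLP liver exceeded every sham liver for 28 members, where 5.22% of all rows were so separated, and every CLP kidney exceeded every sham kidney for 12, against 3.31% of all rows. Both held for 7 (Tubb2b, Cep170, Mrps18b, Tnfrsf22, Ddx28, Psmd4 and Hbp1), against 1.07% of rows. The limma fit called 47 members higher in CLP liver and 49 in CLP kidney, beside 24.0% and 20.4% of all probes tested, and nothing is read from these shares because the same contrast chose the members. In the other organs, where the rule capped the difference and so set these counts in part, 12 of 48 members tested were called higher in CLP lung (15.9% of all probes were), by 0.29 to 0.50 log2, led by Psmd4 and Tmem43. In CLP heart 3 of 47 were called higher (Mrps18b, Psmd4 and Ppp1r14b, by 0.42 to 0.48, against 8.42% of probes) and Cep78 was called lower by 0.58 (against 9.04%). In CLP spleen none of 48 was called higher (against 7.22%) or lower. An unadjusted p under 0.05 was found for 8 of them and for 3655 of all 11048 probes.

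**Figure D1:**
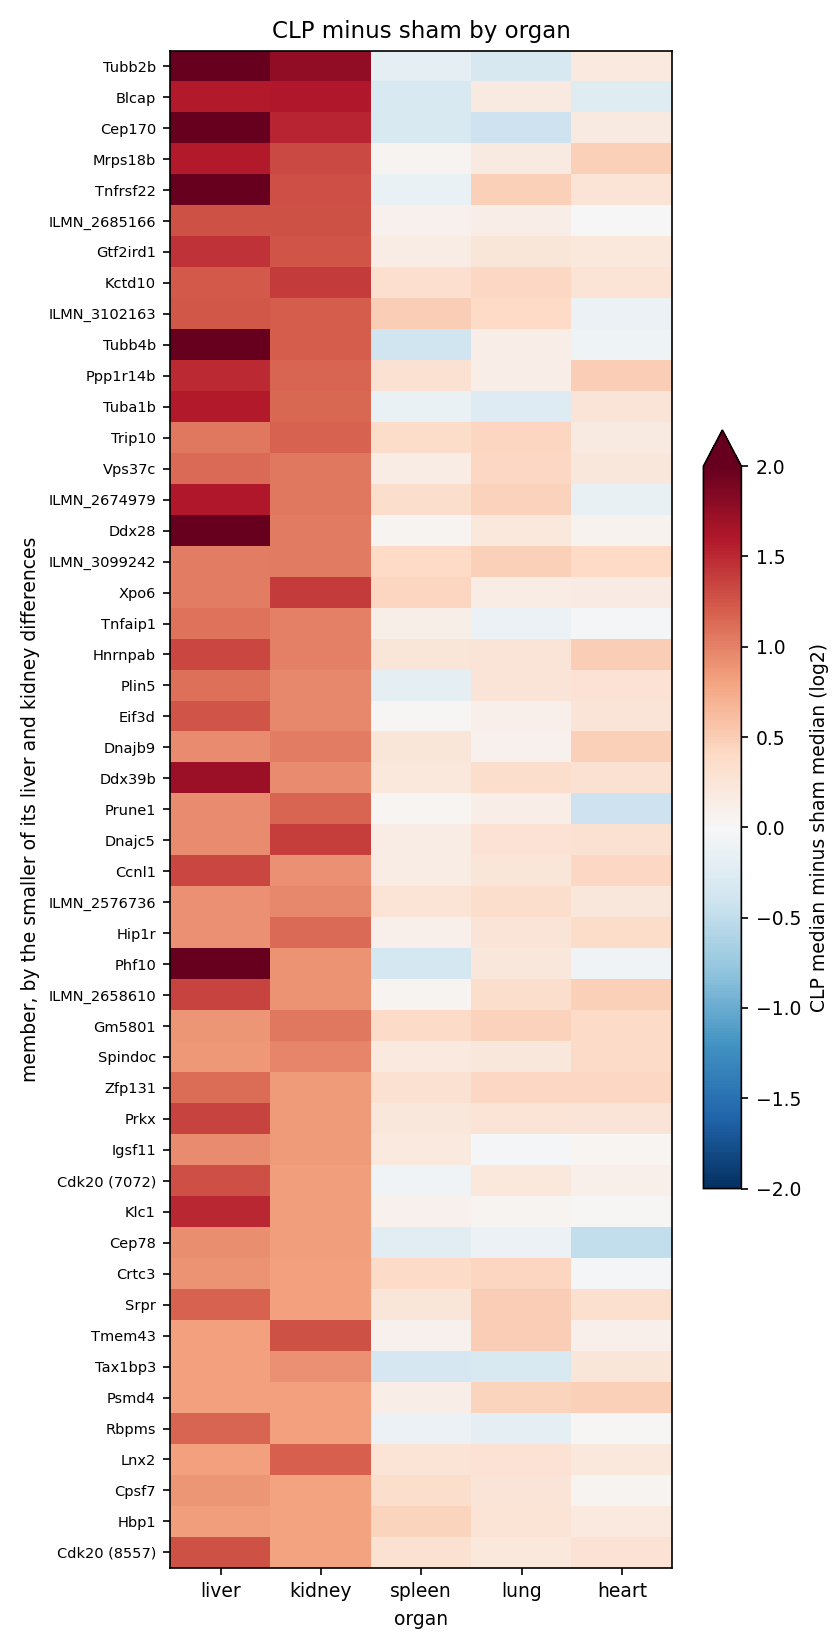
CLP median minus sham median (log2, colour scale from -2 to 2) for each of the 49 members (rows) in liver, kidney, spleen, lung and heart (columns). The liver and kidney columns are at 0.81 or above throughout and the other 3 columns lie between -0.49 and 0.49, as the rule required.

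The cutoffs of the rule divide a continuum. The smallest member differences were 0.81 each for one Cdk20 probe, Hbp1 and Cpsf7, and the nearest probes outside were Noc2l and a second Mrps18b probe at 0.80 and Otud7b at 0.79. The largest differences tolerated in a flat organ were 0.49 each for Ppp1r14b, Tmem43 and Hnrnpab, while Khdc4 was left out at 0.50 and Tagln2 and ILMN_2514631 at 0.51. The lowest CLP medians inside were 7.14 (ILMN_2576736), 7.15 (ILMN_2685166) and 7.23 (Crtc3), and the highest outside were 6.89 (E030030I06Rik), 6.63 (Trib3) and 6.40 (Tom1l2).

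In sham mice the order of the organs differed between members. Among liver, kidney, lung and heart, which were normalized together, the highest sham median of a member lay in lung for 20 members, in heart for 18, in liver for 9 and in kidney for 2. The lowest lay in liver for 22 and in kidney for 15. Sham liver was below both sham lung and sham heart for 28 members, and CLP liver was above both for 36. In kidney the same counts were 33 and 35. Because the rule asked for higher CLP values in liver and kidney alone, the change of order between the organs follows in part from the choice.

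Averaged over the 49 members, the level was 8.69 ± 0.11 (SD, n = 5) in sham liver, 9.85 ± 0.41 in CLP liver and 9.33 ± 0.24 in MSC liver. In kidney it was 8.66 ± 0.05, 9.58 ± 0.48 and 9.07 ± 0.26 in the same order. The CLP livers read 9.13 (107C), 9.90, 10.06, 10.06 and 10.08, and the MSC livers 9.05, 9.16, 9.31, 9.56 and 9.58. Every MSC liver and every MSC kidney stood above every sham array of its organ, and all MSC livers stood below the CLP livers other than that of mouse 107C. In lung the means were 9.09 ± 0.05, 9.29 ± 0.15 and 9.14 ± 0.04, and in heart 9.10 ± 0.06, 9.27 ± 0.11 and 9.12 ± 0.07. Spleen levels, normalized apart, were 9.49 ± 0.02, 9.61 ± 0.04 and 9.60 ± 0.03 (n = 4).

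**Figure D2:**
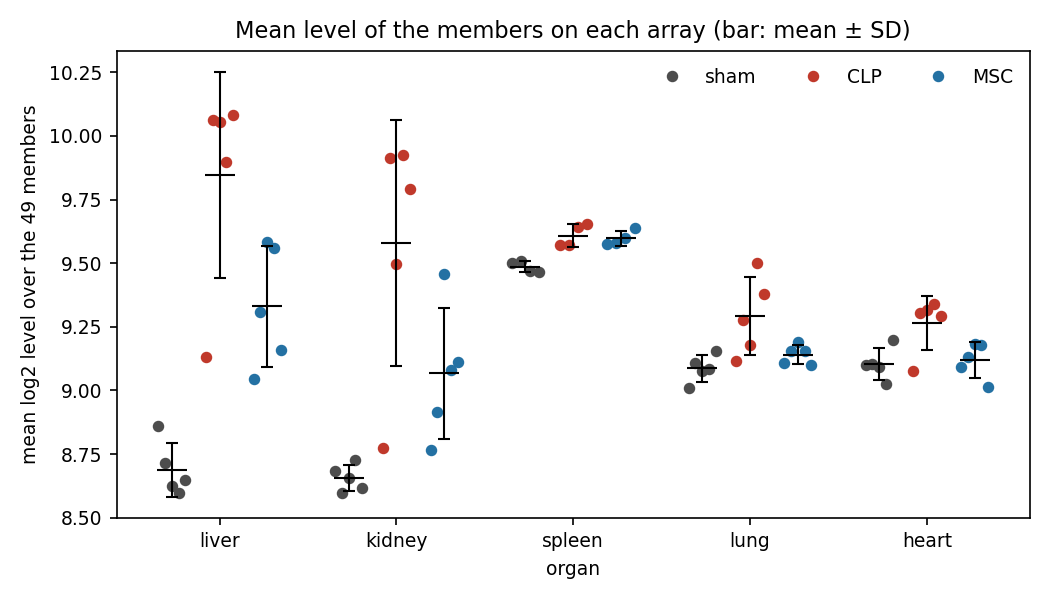
Mean log2 level over the 49 members in each array, by organ and arm (points, arrays). CLP livers and kidneys lie highest within their organ, except for mouse 107C at 9.13 in liver and 8.77 in kidney, and MSC arrays lie between.

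Mouse 107C was low for most members. Its array was the lowest CLP value for 39 of the 49 in liver and 48 in kidney, and it was at or above the CLP median for both Cdk20 probes and Dnajb9 in liver and for Plin5 in kidney. On a scale where the sham median is 0% and the CLP median is 100%, its median position over members was 28.5% in liver and 11.3% in kidney, while the other 4 CLP mice lay at 100% to 106% in liver and 79.8% to 117% in kidney. Over the 279 features that were higher in both organs but not flat elsewhere, 107C stood at 26.2% and 15.2%. The MSC mice spread widely, from 20.7% (100M) to 69.0% (16M) in liver and from 12.7% (100M) to 73.4% (16M) in kidney, so that the same 2 animals were lowest and highest in both organs. Counts below that turn on mouse 107C are given with and without it.

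Cell type markers from lists that hold no member moved between the arms as well. The mean of 7 neutrophil probes was 5.19 to 5.58 in sham livers, 6.24 to 6.67 in CLP livers and 5.89 to 6.29 in MSC livers, and in kidney 5.04 to 5.33, 5.51 to 5.93 and 5.42 to 5.78. The sham liver means and all kidney means lay below the intensity floor of 6. Only 3 of the 7 probes passed the filter in liver, and 3 in kidney, so the size of these differences is uncertain. The mean of 3 hepatocyte probes was 13.18 to 13.47 in sham livers, 10.97 to 13.33 in CLP livers and 12.35 to 13.33 in MSC livers. In the kidneys, 8 tubule probes averaged 11.70 to 12.04, 10.21 to 11.60 and 10.69 to 11.64. Macrophage markers (6 probes) in liver averaged 7.06 to 7.55, 6.22 to 7.32 and 6.37 to 7.74, and the hepatocyte probes reached 10.26 in 1 sham kidney, against a sham kidney median of 7.47. Their part in the results for the members was not tested.

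The tubulins were among the members with the largest differences. Tubb2b in liver read 7.89, 7.91, 8.55, 9.95 and 10.41 in sham mice, 10.56, 10.92, 12.02, 12.14 and 12.21 in CLP mice, and 10.78, 11.32, 11.44, 11.67 and 11.99 in MSC mice. In kidney it read 9.38, 9.56, 9.71, 9.72 and 9.77 in sham, 10.25, 11.48, 11.48, 11.78 and 11.95 in CLP, and 10.58, 10.64, 10.83, 11.04 and 11.86 in MSC mice. In both organs all CLP and all MSC arrays stood above all sham arrays, and the sham livers of mice 21S and 22S were far above the other 3. Tubb4b in kidney read 10.83, 11.07, 11.20, 11.20 and 11.21 in sham, 11.51, 12.38, 12.40, 12.68 and 12.70 in CLP, and 11.65, 11.82, 12.05, 12.12 and 12.63 in MSC mice, without overlap of sham with either arm. In liver it spanned 10.22 to 11.88, 11.65 to 12.69 and 11.97 to 12.49, again with 21S and 22S as the highest sham livers. Tuba1b spanned 12.03 to 13.19, 13.09 to 13.91 and 12.76 to 13.55 in liver, and 13.09 to 13.34, 13.71 to 14.91 and 13.54 to 14.49 in kidney, where sham overlapped with neither arm. Klc1, the kinesin light chain, read 5.94, 6.33, 6.46, 6.46 and 6.52 in sham livers, 6.96, 7.46, 7.96, 8.10 and 8.40 in CLP livers and 6.56, 6.91, 7.18, 7.49 and 7.77 in MSC livers, with no sham liver reaching either arm. It rose in MSC over sham liver by 0.84 ± 0.26 log2 (SE, limma adjusted p = 0.0315), a call that was lost without any one of 7 mice (sham 22S, 76S, 77S and 78S, and MSC 16M, 44M and 101M) and with no filter on dim probes.

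Probes of other tubulin genes, looked up in the companion table of the same arrays after these values were seen, did not all share the pattern. Tubb6, a beta-tubulin, was higher in CLP by a fitted 2.86 in liver and 2.07 in kidney, but also by 1.42 in heart. Tubb5, a widely expressed beta-tubulin, was higher by 1.81 and 1.34, but was called lower in lung, at -0.50 (limma adjusted p = 0.03). A second Tubb5 probe lay below the intensity floor. The 22 tubulin probes above the intensity floor in both organs include the member probes of Tubb2b, Tubb4b and Tuba1b, which the rule chose. Over these 22 the median CLP-minus-sham difference was 0.05 in liver and 0.40 in kidney. It was -0.26 in lung (21 probes) and -0.23 in heart. The other 4 Tubb2b probes above the floor had fitted differences of -0.18, -0.02, 0.12 and 0.89 in liver, while in kidney, in the same order of probes, the differences were 1.02, 1.03, 0.77 and 1.21, each called higher (limma adjusted p from 0.00387 to 0.0154). In lung, the Tubb2b probe at 0.89 in liver was called lower in CLP, at -1.49 (limma adjusted p = 0.00313). The rest were not called there, at -0.14, 0.02 and -0.09, and in heart none of the 4 was called. Tubulin genes are close paralogs, so which of them the Tubb2b and Tubb4b probes read is uncertain.

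The comparison of MSC with sham arrays asked what remained of the pattern in treated mice. It used MSC arrays that had no part in the choice of members, but shares its sham arrays with that choice, which favours low sham values. In liver, limma called 20 of 49 members higher in MSC than in sham mice at an adjusted p under 0.05 (40.8%, against 11.2% of all 9012 probes tested) and none lower. The median difference over members was 0.59, against 0.04 over all probes. In kidney it called 5 of 49 (10.2%, against 3.28% of 8817 probes), with a median of 0.37 against 0.01. For the mean of liver and kidney per mouse it called 15 (30.6%, against 8.97% of 7752 probes), and the count reached 31 without CLP mouse 107C. Without that mouse, the kidney count was 9 and the liver count 26. The shares of all probes called in the fits without single mice are not given here. The liver count was 11 without MSC mouse 44M, 12 without MSC mouse 16M or sham mouse 78S, and 13 without sham mouse 77S. The kidney count was 3 without any one of sham mice 21S, 76S, 77S and 78S or of MSC mice 16M, 44M and 61M.

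Tubb2b rose in MSC over sham liver by 2.50 ± 0.47 log2 (SE, limma adjusted p = 0.00149) and in kidney by 1.36 ± 0.28 (adjusted p = 0.0098). Tubb4b rose by 1.31 ± 0.31 (adjusted p = 0.00687) and 0.95 ± 0.21 (adjusted p = 0.0165). Plin5 rose by nearly the same amount in both organs, 1.41 ± 0.32 in liver (adjusted p = 0.00529) and 1.42 ± 0.28 in kidney (adjusted p = 0.00789). The member probes of these 3 genes kept their call in kidney in every alternative fit that tested them. So did 11 of the 20 features in liver (Tubb2b, Tubb4b, Plin5, Tnfrsf22, Ddx28, Dnajb9, Srpr, Igsf11, Rbpms and both Cdk20 probes). By medians, the member probe of Tubb2b had 63.3% of its CLP-minus-sham difference left in MSC kidney. Its other probes above the floor had only 24.4%, 29.6%, 30.3% and 31.6% left there, so the Tubb2b result in treated kidney rests on the member probe. The kidney calls of Mrps18b (0.66 ± 0.17, adjusted p = 0.03) and Prune1 (0.70 ± 0.17, adjusted p = 0.0265) were lost when some single mice were left out. In the mean of both organs, Tuba1b rose by 0.71 ± 0.19 and Mrps18b by 0.70 ± 0.18.

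Plin5 had its highest median in the MSC mice in both organs. In liver it read 9.14, 9.77, 10.07, 10.20 and 10.53 in sham, 9.93, 10.55, 11.17, 11.26 and 11.86 in CLP, and 10.93, 11.15, 11.25, 11.70 and 11.72 in MSC mice. The kidneys read 6.93, 7.36, 7.45, 7.65 and 7.88 in sham, 7.64, 7.91, 8.40, 8.46 and 9.02 in CLP, and 8.37, 8.58, 8.77, 8.79 and 9.83 in MSC mice. In both organs all MSC arrays were above all sham arrays while CLP overlapped with sham. By medians, 107% of the CLP-minus-sham difference was left in liver and 139% in kidney. A second Plin5 probe had 121% left in liver. In kidney it was not among the other probes with a CLP-minus-sham difference of at least 0.5, so the kidney share rests on the member probe alone. In heart, an organ where the rule kept the CLP difference small, Plin5 averaged 10.73 ± 0.69 in sham, 11.37 ± 0.39 in CLP and 11.67 ± 0.26 in MSC mice, and the MSC difference from sham was 0.94 (limma adjusted p = 0.0927). The sham heart of mouse 78S, which was high in spleen-enriched probes, read 9.58. Without it the sham mean was 11.02 ± 0.30 (n = 4), and the differences from sham were 0.35 in CLP and 0.66 in MSC hearts. Without all 4 hearts high in spleen-enriched probes, the differences were 0.55 in CLP (n = 3) and 0.76 in MSC hearts (n = 4).

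The MSC values of Dnajb9 differed between the organs. This co-chaperone in liver read 7.07, 7.17, 7.26, 7.44 and 7.88 in sham, 7.99, 8.08, 8.21, 8.40 and 8.55 in CLP, and 7.92, 8.28, 8.66, 8.72 and 9.16 in MSC mice. Kidney values were 6.30, 6.35, 6.37, 6.54 and 6.61 in sham, 6.61, 7.06, 7.39, 7.41 and 7.91 in CLP, and 5.98, 6.45, 6.64, 6.74 and 6.77 in MSC mice. All MSC livers were above all sham livers, while MSC and sham kidneys overlapped. The MSC-minus-sham difference was larger in liver than in kidney of the same mice by 1.10 ± 0.26 (limma adjusted p = 0.00891). A second Dnajb9 probe had 127% of its CLP-minus-sham difference left in liver and 35.3% in kidney.

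This test of the difference between organs, MSC against sham, called 4 members higher in liver (8.16%, against 8.66% of 7752 probes), a share near the background. Ddx28 differed by 1.45 ± 0.23 (adjusted p = 0.00059), Srpr by 0.76 ± 0.22 (adjusted p = 0.0257) and Rbpms by 0.38 ± 0.12 (adjusted p = 0.0319). Ddx28 and Dnajb9 kept the call in every alternative that tested them, and 2 members were left without sham mouse 76S, 77S or 78S. For these fits without single mice, the shares of all probes called are not given here. Ddx28 in liver read 8.41, 8.47, 8.66, 8.73 and 8.94 in sham, 10.31, 10.50, 10.65, 11.04 and 11.59 in CLP, and 9.98, 10.38, 10.64, 10.75 and 10.80 in MSC mice. In kidney the values were 7.54, 7.54, 7.59, 7.67 and 7.75, then 7.87, 8.57, 8.63, 8.72 and 9.03, then 7.75, 7.90, 7.96, 8.02 and 8.53 in the same order of arms. Treated livers overlapped with CLP and not with sham, and treated kidneys lay below all CLP kidneys but that of 107C. Srpr in liver spanned 9.74 to 10.95 in sham, 11.33 to 11.78 in CLP and 11.36 to 11.57 in MSC mice, and in kidney 8.77 to 9.25, 8.95 to 10.01 and 8.81 to 9.79.

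The list of unfolded protein response genes, of which Dnajb9 is the one member in the set, was counted in each organ. Dnajb9 was itself chosen for its CLP-minus-sham difference, so the counts are given without it, beside the shares of all probes tested. In liver, 10 of the 12 other probes were called higher in CLP than in sham mice (limma, 83.3%, against 24.0% of all probes) and none lower (against 19.9%), with a median of 1.34. In MSC liver 10 of 12 were called higher than in sham (83.3%, against 11.2%), with a median of 1.20. Hspa5, the main chaperone of the compartment and the partner of Dnajb9, rose by 2.42 ± 0.50 in CLP and 1.67 ± 0.50 in MSC liver. Hyou1, another chaperone, rose by 1.81 ± 0.35 and 1.72 ± 0.35, and Sec61b, of the channel through which proteins enter, by 0.62 ± 0.23 and 1.10 ± 0.23. In CLP kidney 1 of 11 was called higher (9.09%, against 20.4% of all probes), which was Ssr3 by 0.37 ± 0.11, and Sec61b was called lower (9.09%, against 20.7%), with a median of 0.16. In MSC against sham kidney none of the 11 was called, where 3.28% of all probes were higher, and the median was 0.17. Proteasome subunits other than Psmd4 were called higher for 14 of 24 in CLP liver (58.3%, against 24.0%) and lower for 4 (16.7%, against 19.9%), with a median of 0.45. In CLP kidney 4 of 23 were called higher (17.4%, against 20.4%) and 1 lower, a share of higher calls near the background. In MSC liver 9 of 24 were called higher than in sham (37.5%, against 11.2%) and 4 lower (16.7%, against 9.13%), and in MSC kidney 2 of 23 were higher (8.70%, against 3.28%) and none lower. The other 14 pathway lists hold no member.

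**Figure D3:**
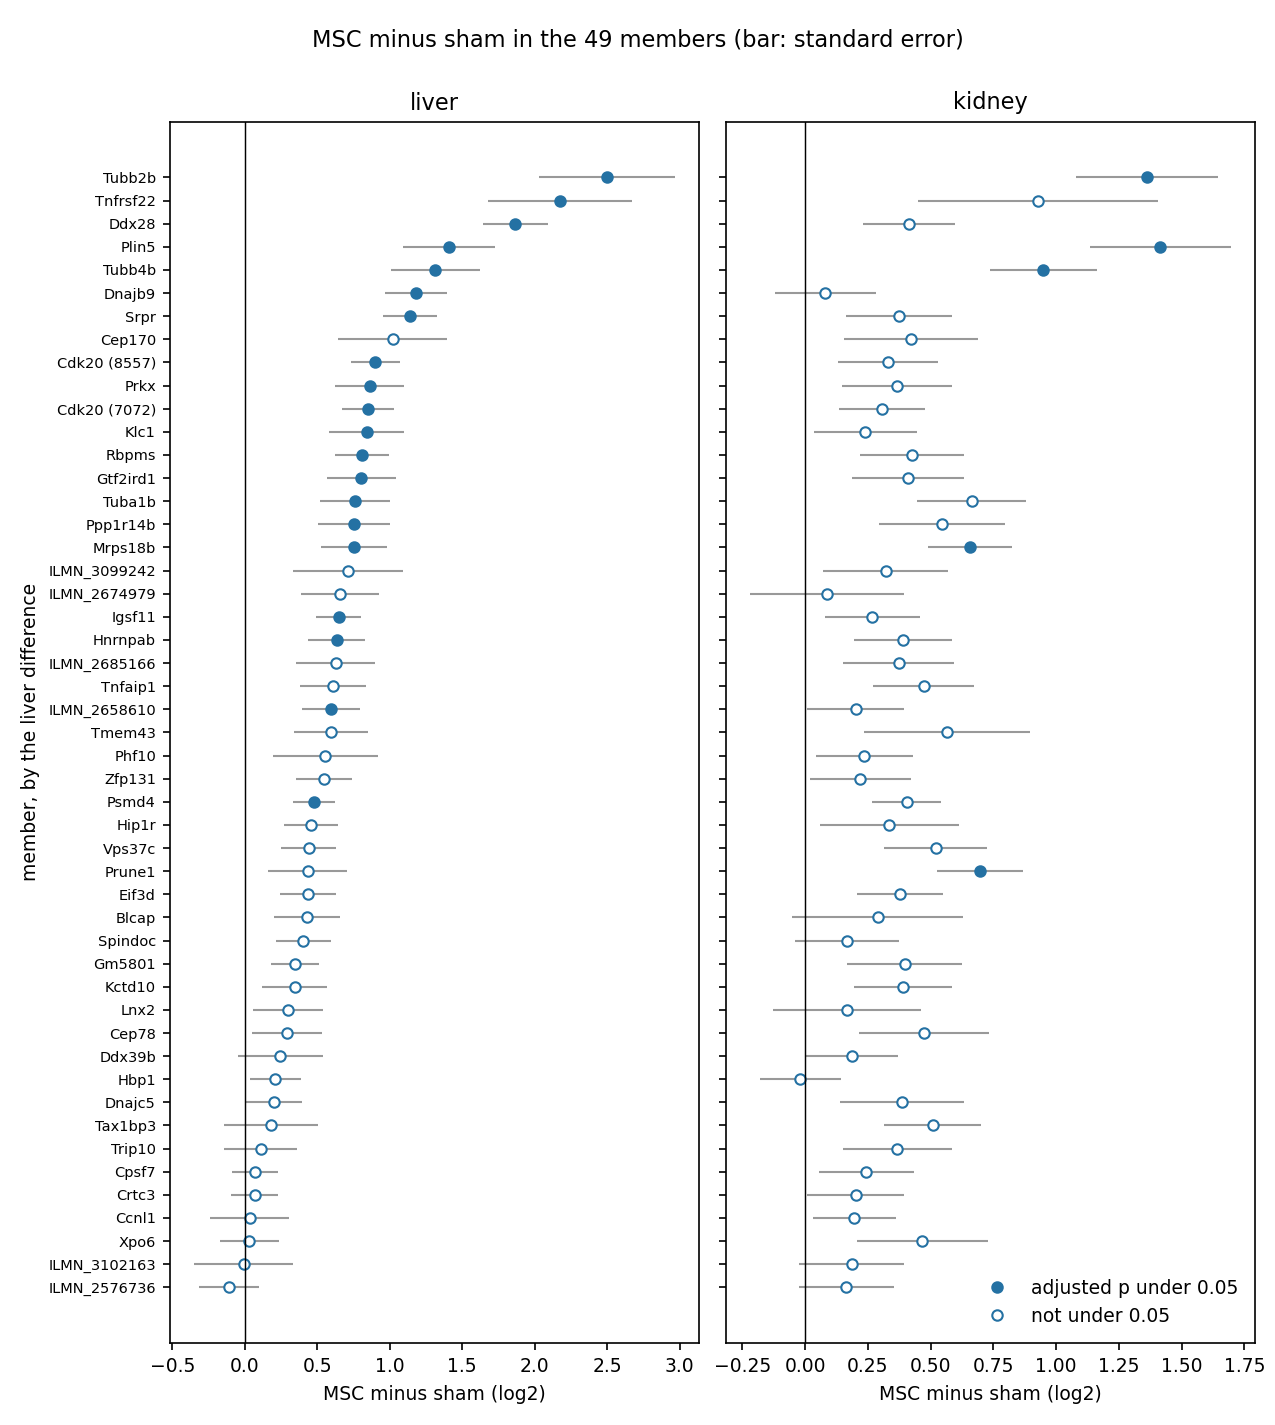
MSC minus sham (log2, fitted difference ± SE, n = 5 mice per arm) for the 49 members in liver and kidney. Filled points passed an adjusted p under 0.05, which 20 did in liver and 5 in kidney.

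Tnfrsf22, the decoy receptor, covered a wide range of levels. In liver it read 5.22, 5.66, 5.82, 6.05 and 7.19 in sham mice, of which 3 lie below the intensity floor of 6, then 7.59, 8.92, 9.31, 10.00 and 10.33 in CLP and 7.43, 7.50, 7.77, 8.69 and 9.43 in MSC mice. Kidney readings were 6.69, 6.74, 6.77, 6.82 and 7.03, then 7.37, 7.89, 8.05, 8.80 and 10.73, then 6.92, 7.55, 7.58, 7.83 and 8.81. No CLP array overlapped with sham in either organ. In MSC liver it rose over sham by 2.18 ± 0.50 on the recorded values (limma adjusted p = 0.00573), and the difference of means is 1.92 with the 3 low sham values raised to the floor, so its size below the floor is uncertain. One other Tnfrsf22 probe showed fitted CLP-minus-sham differences of only 0.02 in liver and 0.08 in kidney, and another had 55.8% of its liver difference left in MSC mice.

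The 2 probes of Cdk20 behaved alike in liver. Probe ILMN_2627072 spanned 7.56 to 8.21 in sham, 8.43 to 9.18 in CLP and 8.54 to 9.15 in MSC mice, and ILMN_1238557 spanned 8.14 to 8.80, 9.26 to 9.84 and 9.09 to 9.70. Both separated sham from the other arms, and rose in MSC over sham liver by 0.85 ± 0.18 (limma adjusted p = 0.00355) and 0.90 ± 0.17 (adjusted p = 0.00148). In kidney all 3 arms overlapped for the second probe, at 6.89 to 7.70, 7.56 to 8.30 and 7.16 to 8.05. Both probes read the same RNA, so they are not independent measurements.

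The comparison of MSC with CLP arrays asked which members were lower in treated mice. It shares its CLP arrays with the choice of members, which favours high CLP values, so its direction is set in part by that choice. In liver, 8 of 49 members were called lower in MSC (limma, 16.3%, against 2.93% of all probes tested) and none higher, with a median of -0.54 against -0.02 over all probes. In kidney none was called (against 0.0227% of probes), with a smallest adjusted p of 0.0763 and a median of -0.51. An unadjusted p under 0.05 was found for 33 of the 49, all lower in MSC, and for 2393 of all 8817 probes in either direction. In the mean of both organs 9 were called lower (18.4%, against 3.38%). These counts turn on mouse 107C: without it 30 were called in liver, 44 in kidney and 43 in the mean. Leaving out any of the other 14 mice gave 0 in liver, and in the mean gave 0 except for 17 without MSC mouse 16M. With array weights the counts were 30, 42 and 42. The shares of all probes called under these settings are not given here, so these counts are not read as particular to the members.

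The members called lower in MSC liver include 3 genes of pre-mRNA processing. Ddx39b fell by 1.26 ± 0.29 log2 (limma adjusted p = 0.0419), Ccnl1 by 1.11 ± 0.27 (adjusted p = 0.0419) and Cpsf7 by 0.72 ± 0.16 (adjusted p = 0.0419). Ddx39b in liver read 10.15, 10.19, 10.40, 10.40 and 10.67 in sham, 10.43 (107C), 12.09, 12.11, 12.22 and 12.50 in CLP, and 10.31, 10.47, 10.58, 10.67 and 11.01 in MSC mice. The MSC livers overlapped with sham and lay below all CLP livers but that of 107C. Ccnl1 had the same layout, with 7.48 to 8.31 in sham, 8.08 (107C), 8.86, 9.22, 9.33 and 9.63 in CLP, and 7.13 to 8.28 in MSC livers. Cpsf7 spanned 9.65 to 9.86, 9.96 to 10.88 and 9.68 to 9.99.

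Other probes of these genes also had little of the difference left. The other Ddx39b probe above the floor had 15.8% of its CLP-minus-sham difference left in MSC liver and 3.5% in kidney, beside 10.3% and 27.2% for the member. The 2 other Ccnl1 probes had -2.2% and 0.7% left in liver and 11.6% and -1.9% in kidney, beside 17.2% and 25.6% for the member. The other Cpsf7 probe had 12.1% left in liver, beside 12.2%. A Hnrnpab probe outside the set, however, had 5.7% left in liver and 55.2% in kidney.

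Of the other members called lower in MSC liver, Blcap, a small membrane protein linked to apoptosis, fell by 0.92 ± 0.23 (limma adjusted p = 0.0419). It read 9.45, 9.51, 9.65, 9.69 and 9.82 in sham, 10.07, 10.75, 11.24, 11.30 and 11.50 in CLP, and 9.67, 9.94, 10.11, 10.11 and 10.43 in MSC livers. In kidney the ranges were 9.39 to 9.91 in sham, 9.51 (107C), 10.49, 11.23, 11.50 and 11.62 in CLP, and 9.44, 9.46, 9.82, 10.17 and 10.78 in MSC mice. The treated mice overlapped with sham in both organs. Xpo6 fell by 0.80 ± 0.20, Hbp1 by 0.64 ± 0.18 and Crtc3 by 0.62 ± 0.16, and the unnamed ILMN_2576736 by 0.92 ± 0.21, with adjusted p-values from 0.0419 to 0.0448.

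Hbp1, the cell cycle repressor, varied little among sham mice. In liver it read 11.30, 11.32, 11.33, 11.34 and 11.39 in sham, 11.65, 11.97, 12.17, 12.32 and 12.81 in CLP, and 11.26, 11.51, 11.53, 11.66 and 11.77 in MSC mice. Kidneys read 11.45, 11.51, 11.53, 11.58 and 11.61 in sham, 11.63, 12.10, 12.34, 12.44 and 12.72 in CLP, and 11.21, 11.48, 11.57, 11.63 and 11.69 in MSC mice. Treated kidneys reached from below the sham range to just above it, with 5.4% of the difference left, and treated livers lay lower than all CLP livers but that of 107C. Of 5 other Hbp1 probes, the 3 with a CLP-minus-sham difference of at least 0.5 had 38.8% to 58.5% left in liver and -16.4% to 12.4% in kidney. The fourth had fitted CLP-minus-sham differences of 0.32 in liver and -0.09 in kidney, neither called, and the fifth lay below the intensity floor.

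Members called only in the mean of both organs were Cep170, Kctd10 and the unnamed ILMN_3102163. Cep170 fell by 1.11 ± 0.30 (limma adjusted p = 0.0483). In liver it read 8.05, 8.06, 8.21, 8.31 and 8.34 in sham, 8.57 (107C), 10.83, 10.88, 11.09 and 11.11 in CLP, and 8.74, 8.76, 9.29, 9.59 and 9.66 in MSC mice, so that the MSC livers formed a middle band that touched neither sham nor the other 4 CLP livers. In kidney it read 7.62 to 7.80 in sham, 7.94, 8.82, 9.23, 9.42 and 9.93 in CLP, and 7.85, 7.93, 8.04, 8.30 and 8.60 in MSC mice. Kctd10 fell by 0.72 ± 0.19 and spanned, in kidney, 9.40 to 9.62, 9.87 to 11.08 and 9.57 to 10.24.

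The change between CLP and MSC mice was not shown to differ between liver and kidney for any member. No member passed limma's test of liver minus kidney per mouse (0 of 49, against 0.0645% of probes), and the smallest adjusted p was 0.0838. An unadjusted p under 0.05 was found for 5 members and for 1494 of all 7752 probes.

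**Figure D4:**
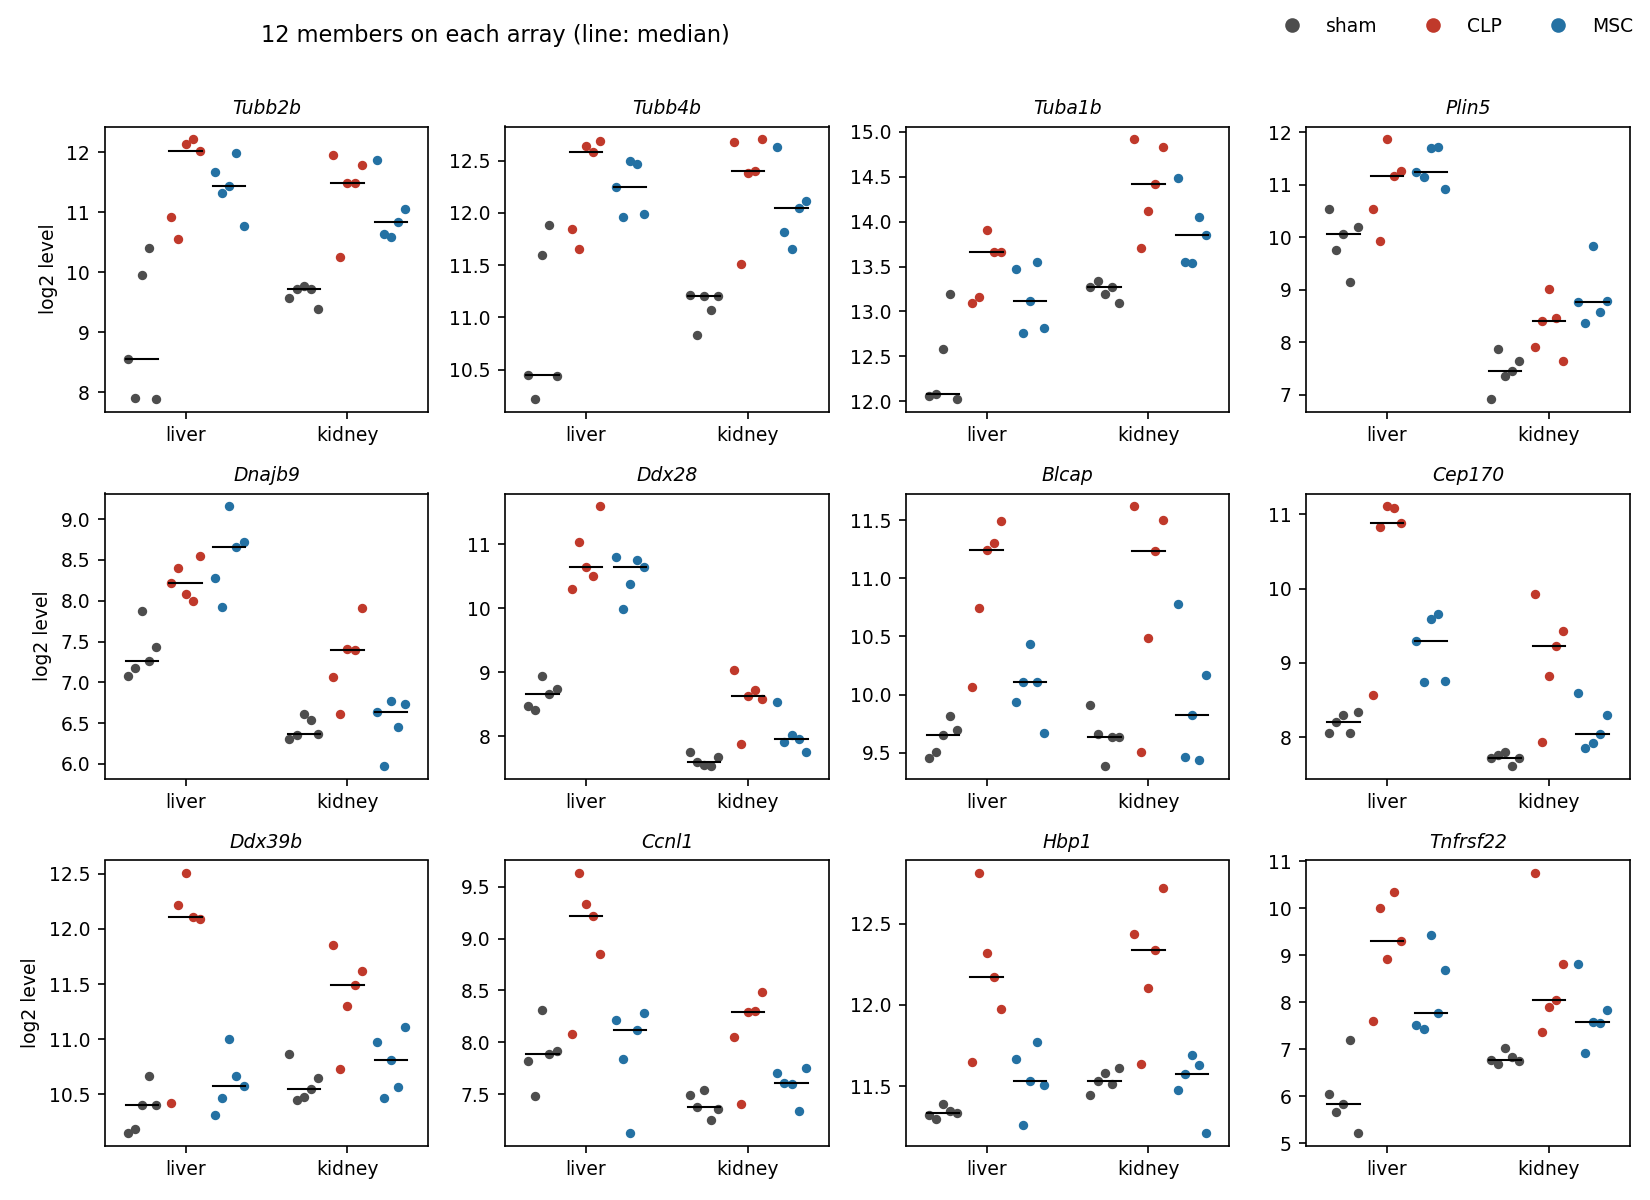
Log2 level of 12 members in each liver and kidney array (points, with a line at the median) for sham, CLP and MSC mice. Plin5 and the liver values of Tubb2b, Dnajb9 and Ddx28 stay high in MSC mice, while Ddx39b, Ccnl1, Blcap and Hbp1 lie near sham.

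How much of the CLP-minus-sham difference of medians was left in MSC mice varied between members. The median over members was 46.8% in liver (quartiles 28.1% and 66.0%) and 31.8% in kidney (24.1% and 51.1%). Under 50% was left for 30 members in liver and 35 in kidney. The 279 features that were higher in both organs without being flat elsewhere had medians of 46.0% and 34.8%. At the low end in liver were ILMN_3102163 at -11.1%, ILMN_2576736 at -1.2% and Tax1bp3, a small PDZ-domain protein, at 6.1%. At the high end were Ddx28 at 99.5%, Plin5 at 107% and Dnajb9 at 147%. In kidney the range ran from ILMN_2674979 at -24.3%, Hbp1 at 5.4% and Spindoc at 11.6% to Igsf11, an adhesion protein, at 63.5%, Tubb4b at 70.3% and Plin5 at 139%. Members that kept much of the difference in one organ tended to keep it in the other, with a Spearman coefficient of 0.52 over the 49 members, which share mice and arrays and include both Cdk20 probes. More than 50% was left in both organs for 9 members and under 50% in both for 25.

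**Figure D5:**
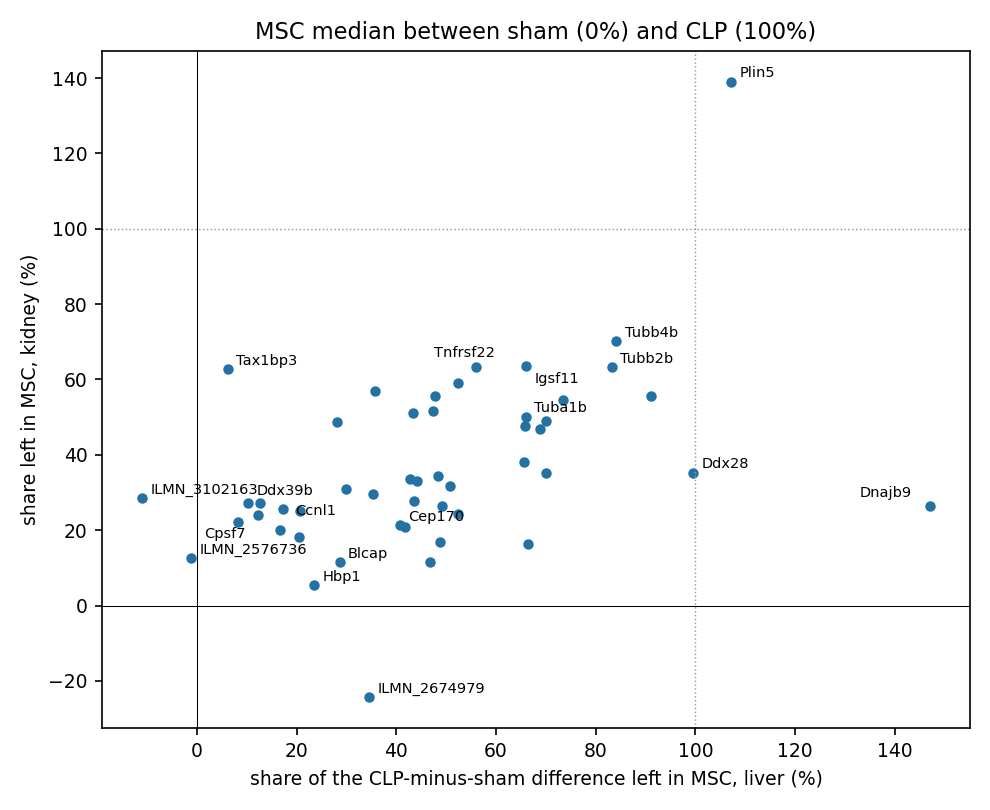
Share of the CLP-minus-sham difference of medians left in MSC mice (%), liver on the x axis and kidney on the y axis, for the 49 members. Plin5 lies above 100% on both axes, and Dnajb9 and Ddx28 lie far right at lower kidney values.

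Some of the probes at the ends of this range have no gene name. In liver, ILMN_3102163 spanned 6.77 to 7.33 in sham, 6.56 (107C) to 8.66 in CLP and 6.29 to 7.83 in MSC mice. ILMN_2576736 spanned 5.89 to 6.83, 6.58 to 7.70 and 5.85 to 6.38, close to the intensity floor. ILMN_2674979 in kidney spanned 7.75 to 8.71, 7.92 to 9.69 and 8.01 to 8.83. Another unnamed member, ILMN_2685166, was also low in liver, at 5.26 to 6.25, 6.15 to 7.43 and 6.10 to 7.23. Sham overlapped with CLP in each of these cases. It did not for Psmd4, which spanned 12.40 to 12.72, 12.90 to 13.61 and 12.82 to 13.22 in liver. Tax1bp3 was split in CLP liver, with 9.14 (35C), 9.29, 10.40, 10.81 and 10.83 against 9.22 to 9.60 in sham, while in kidney 4 CLP arrays read 11.48 to 11.67 and 107C read 10.61, within the sham range of 10.35 to 10.71.

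Other probes of the member genes were examined in the companion table, which holds the same arrays. There were 59 such probes for 29 of the genes, and 43 lay above the intensity floor in both organs. Their CLP-minus-sham difference was above 0 in both organs for 40 of the 43 and at 0.8 or more in both, by medians, for 13. The median was 0.84 in liver and 0.77 in kidney. Where a probe differed by at least 0.5, a median of 54.4% of the difference was left in MSC liver (33 probes) and 35.3% in MSC kidney (33 probes). The highest shares in liver were those of single probes of Igsf11 (135%), Dnajb9 (127%), Plin5 (121%), Cdk20 (109%) and Gtf2ird1 (102%), a transcription factor, followed by a second Cdk20 probe (99.6%). Second probes of Igsf11 and Gtf2ird1 stood lower, at 68.3% and 69.2%. These are the same mice, so the values describe how the probes of a gene compare and are not a repeat of the experiment.

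Outside liver and kidney, few members differed between MSC and sham mice. In lung, 3 of 48 members tested were called higher in MSC (limma, 6.25%, against 4.2% of 8684 probes). Ccnl1 rose by 0.61 ± 0.12 (adjusted p = 0.00336), with 7.25, 7.53, 7.56, 7.59 and 7.59 in sham, 7.67, 7.78, 7.81, 8.09 and 8.18 in CLP, and 7.82, 8.08, 8.11, 8.24 and 8.32 in MSC lungs. Every injured lung, treated or not, was above every sham lung, whereas treated livers overlapped with sham for this gene. Tmem43, a nuclear envelope protein, rose by 0.35 ± 0.10 (adjusted p = 0.0336) and ILMN_3099242 by 0.38 ± 0.11 (adjusted p = 0.0301), and both calls were lost when some single mice were left out. The lung count was 5 without CLP mouse 107C and 1 without sham mouse 21S or 76S or MSC mouse 44M. Shares of all probes called in these lung fits are not given here, so the counts are not read as particular to the members.

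In heart none of 47 members was called in MSC against sham (limma, against 1.87% of 8820 probes), and the smallest adjusted p was 0.0508 (Tnfrsf22). An unadjusted p under 0.05 was found for 3 members, all higher in MSC, and for 1344 of the 8820 probes in either direction. Hearts of mice 78S, 107C, 61M and 37C were high in 327 spleen-enriched probes (means of 6.54 to 7.53, against 5.75 to 6.23 in the others), and without them 41 of the 49 members stayed within 0.5 in heart and 1 was called. The heart count was also 1 without CLP mouse 35C and 2 without MSC mouse 100M. Shares of all probes called in these heart fits are not given here, so the counts are not read as particular to the members. In spleen none of 48 was called (against 3.85% of 11048 probes), with a smallest adjusted p of 0.107. An unadjusted p under 0.05 was found for 7 members, of which 1 was lower in MSC, and for 2802 of the 11048 probes. The 2 deposited tables disagree on the names of 7 spleen arrays, 2 of which change arm. With the companion table's names, all 49 members still lay within 0.5 in spleen (-0.36 to 0.42).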

How the data were processed

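RNA of 72 organ samples was extracted with Trizol and hybridised as biotinylated cRNA to Illumina arrays, per the labels' protocols. The deposited values (0.01 to 16.03) were taken as log2 intensities from that range. The authors' software and normalization steps are not given in the sources used. The 12 spleen arrays share one distribution of values and the 60 other arrays another. Spleen levels were set against other organs only by the cutoff of 3 log2 between sham medians. In the rule this cutoff removed none of the 49 probes that had met the other conditions. The 327 spleen-enriched probes were also chosen by it, so their choice compares levels across both distributions. The fits used the 22504 rows with columns in header order and left out 22751 complete rows in another order, 8 broken rows and 18 with a dot. Spleen column B could be tied to the CLP arm but to no single sample. The companion series table holds the same values shifted, for each probe, by one constant in the spleen arrays and another in the 60 others, so that differences within an organ are unchanged.

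The members and gene lists were chosen with earlier results of these data known. The 3 arms of each organ were fitted together with lmFit and eBayes (limma 3.58.1, R 4.3.3) on probes that exceeded 6 log2 in 5 arrays of the organ (4 in spleen) or more, with Benjamini-Hochberg adjustment over all probes tested and a threshold of 0.05. Liver and kidney of a mouse were also averaged, or subtracted, before the fit. No depth applies to arrays, whose number sets the precision. Spleens are not tied to the numbered mice. Named with values were the 6 members with the largest smaller difference, those called in the MSC comparisons (up to 6, or 4 in the flat organs), genes with 2 member probes, members nearest each cutoff, members in the gene lists, and the 3 lowest and highest shares left; Ddx28, Srpr, Tuba1b and others beyond these were added after their values were seen. Gene names came from the platform annotation and promoters from RefSeq (GRCm38.p6). On simulated data a 1 log2 change in 200 probes, MSC against sham, was recovered for 70.5% in liver (4.73% of calls false), 84.5% in kidney (2.87%) and 89% in the mean (5.82%). Alternatives were scaling, filter, arms in the fit, array weights, eBayes settings, the companion table, a replicate block and each mouse left out. Plin5 without the heart of mouse 78S, or without all 4 hearts high in spleen-enriched probes, was added after seeing the data. So were Tnfrsf22 at the floor and the gene lists without members. Tables and plots were made with Python 3.11.15, pandas 2.3.3, numpy 2.4.6 and matplotlib 3.10.9.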

Additional observations from a re-analysis of the deposited data

Results flagged for a closer look

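In groups of 4 or 5 arrays, some samples stood far from the rest of their group. The mean over the 49 members did so in 2 of 15 groups, both in CLP mouse 107C, at 9.13 log2 in liver and 9.08 in heart. Among 27 named members in 6 groups each, 12 of 162 groups (7.41%) held such a sample, against about 5% by chance. The groups share arrays and mice and so are not independent, and nothing is read from these shares. Of the 12, 9 were low values of mouse 107C. In liver these were Cep170 at 8.57, Ddx39b at 10.43, Xpo6 at 8.93, ILMN_2685166 at 6.15, ILMN_3102163 at 6.56 and ILMN_2674979 at 8.66. In kidney they were Tubb2b at 10.25, Tubb4b at 11.51 and Tax1bp3 at 10.61. The other 3 were high values, of Cdk20 (ILMN_2627072) at 9.15 in the liver of MSC mouse 61M and at 7.41 in the kidney of sham mouse 21S, and of Plin5 at 9.83 in the kidney of MSC mouse 44M.

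The MSC-minus-sham difference was larger in liver than in kidney, by limma's test within mice, for Ddx28 by 1.45, Dnajb9 by 1.1, Srpr by 0.76 and Rbpms by 0.38 log2.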

How the results depend on the processing

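Applying the rule to group means gave 34 members (21 shared), to values of the companion table gave 53 (48 shared), leaving out the 4 hearts with much spleen-enriched signal gave 46 (41 shared, chosen after seeing the data), and leaving out single sham or CLP mice gave 38 to 62. The counts of members called depended more on the settings. The shares of all probes called under each setting are not given here, so these counts are not read as particular to the members. For MSC against CLP in liver the count of 8 became 30 with array weights, 0 with no filter on dim probes, 0 with only the 2 arms fitted, and 0 to 30 without single mice. In kidney 0 became 42 with array weights and 0 to 44 without single mice. In the mean of both organs 9 became 42 with array weights, 0 with no filter, 0 with only 2 arms, 0 in the companion table, and 0 to 43 without single mice. For liver minus kidney 0 became 3 with array weights and 0 to 4 without single mice. For MSC against sham, liver moved from 20 to 32 with array weights, 13 with no filter, and 11 to 26 without single mice. Kidney moved from 5 to 11 with array weights, 3 with no filter, 11 with only 2 arms, and 3 to 9. The mean moved from 15 to 31 with array weights, 30 with only 2 arms, and 10 to 31. Liver minus kidney moved from 4 to 9, 2 and 7 in those 3 settings, and 2 to 5, and lung from 3 to 6, 1 and 5, and 1 to 5. Heart moved from 0 to 1 with 75th percentile scaling, 4 with array weights, 1 with a floor of 7 log2, 1 with trend and robust eBayes, 1 without the 4 hearts, and 0 to 2 without single mice. Spleen moved from 0 to 4 with array weights and stayed at 0 without single arrays and with the label set as a block. Only the members called in the main fits were followed singly under these alternatives. Of their values, 1005 kept direction and side of the threshold, 423 kept direction but no longer passed, and 0 reversed. Because these members had already passed and were refitted on largely the same arrays, a reversal was unlikely from the outset. The cause of the changes in the counts was not tested.

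With liver and kidney of each mouse kept as separate arrays and the mouse as a replicate block, the mean of both organs gave 28 members for MSC against CLP and 22 for MSC against sham. The shares of all probes called in this setting are not given here either, so these counts are not read as particular to the members.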

Other observations

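Of 22759 rows of the companion table outside those used here, 64 met the same thresholds, 6 of them in member genes. A median of 48.2% of their CLP-minus-sham difference was left in MSC liver and 39.4% in MSC kidney. Of the 328 features that were higher in both liver and kidney, 124 also differed by 0.8 or more in spleen, 99 in lung and 152 in heart.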
